A study of Mus musculus with 10 samples.

Results

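The deposited H3K36me3 table held 43255 consensus peaks, of which 10639 were centred in sequence annotated as intergenic. The stretches described here were the 4949 of these that were at least 1000 bp wide and had a wild-type value of at least 15 normalized reads. They were chosen by the wild-type H3K36me3 value and the width, and both are given only as a description. The study used ChIP-seq, in which chromatin fragments are pulled down with an antibody and sequenced, for 4 histone marks of neutrophils that were sorted from mice and used ex vivo without culture. The wild-type mice (WT) were C57BL6, and the second group was Morrbid deficient on the C57BL6 background (KO). Morrbid is a long non-coding RNA gene near Bcl2l11, which encodes the pro-apoptotic protein Bim. Each mark was measured in 1 library per genotype. No number or pooling of animals was given in the labels.

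H3K36me3 is laid down by the methyltransferase Setd2, which travels with elongating RNA polymerase II, so the mark usually covers the bodies of transcribed genes. H3K4me3 is found at active transcription starts, H3K27ac at active promoters and enhancers, and H3K4me1 broadly around enhancers. An H3K36me3 stretch outside annotated genes, with H3K4me3 near it, is a chromatin pattern used to look for long non-coding RNA genes, for primary microRNA transcripts and for transcripts that run past an annotated end.

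Of the 4949 stretches, 161 held a start rebuilt from the peak annotations or the centre of a peak annotated to a gene, although their own centre was intergenic. These are called holding stretches below. A further 1681 lay within 10 kb of a genic H3K36me3 peak of the same minimum width and value, and are called adjoining. For 3 of the adjoining stretches, nearest to Ifitm1, Pmch and Snora30, the deposited distance puts the nearest start inside the stretch, but no start was rebuilt there. The remaining 3107 were free-standing. The tables annotate a peak by its centre, so a wide peak that runs over genes can be listed as intergenic. The stretches made up 11.4% of all H3K36me3 peaks. They took 4.17% of the WT and 4.16% of the KO reads counted in H3K36me3 peaks.

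5 of the stretches held the starts of 7 microRNA genes. Their mature sequences are printed because a microRNA acts through its seed, bases 2 to 8, which is in capitals, and because 2 pairs of neighbours shared a seed. All 7 genes were matched to RefSeq (GRCm38.p6), and 1 mature product of each of 6 is shown.
mmu-miR-29a-3p: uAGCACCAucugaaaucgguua
mmu-miR-29b-3p: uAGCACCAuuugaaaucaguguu
mmu-miR-181a-5p: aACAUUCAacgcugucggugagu
mmu-miR-181b-5p: aACAUUCAuugcugucgguggguu
mmu-miR-365-3p: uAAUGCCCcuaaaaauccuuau
mmu-miR-101a-3p: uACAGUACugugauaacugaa

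The first pair shared the seed AGCACCA and came from a stretch of 24.0 kb on chromosome 6 (chr6:31005183-31029223, mm9). Its H3K36me3 value was 1023 normalized reads in the WT and 1101 in the KO, and the log2 ratio was 0.10 with a 95% counting interval of -0.02 to 0.22. Mir29a and Mir29b-1 lie together on the minus strand there. No H3K4me3 peak lay within 5 kb, and the nearest was 33504 bp away. The Mir181a-1 and Mir181b-1 pair, with the shared seed ACAUUCA, lay inside the right end of a stretch of 9.22 kb (chr1:139854096-139863311). It held 175 normalized reads in the WT and 179 in the KO, and the nearest H3K4me3 peak was 56424 bp away.

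Mir365-2 and Mir804 lay in stretches with H3K4me3 at hand. The Mir365-2 stretch (chr11:79533644-79542516) had 269 normalized reads in the WT and 229 in the KO, and an intergenic H3K4me3 peak lay 486 bp away. The Mir804 stretch (chr11:50164649-50172077) had 219 and 239, and an intergenic H3K4me3 peak overlapped it. Mir101a lay in a narrower stretch of 3.37 kb with 111 and 104 normalized reads, and its nearest H3K4me3 peak was 7660 bp away. The counting intervals of the log2 ratio between KO and WT spanned 0 for all 5 of these stretches. For scale, a start was rebuilt for 642 microRNA genes. Such starts were held by 5 of the 4949 stretches and by 258 genic H3K36me3 peaks. The stretches were chosen by an intergenic centre, which bears on these counts, so nothing is read from them.

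Of the stretches downstream of annotated non-coding RNA starts that carried H3K4me3, 2 are described here. The RefSeq promoters of both genes (GRCm38.p6, 250 bases before the start to 50 after it) are printed with each CpG in capitals, since CpG-rich promoters commonly carry H3K4me3. The median over the 32851 promoters of the RefSeq table was 7 CpG, counted on 1 strand, and these promoters held 16 and 43.
4632427E13Rik promoter: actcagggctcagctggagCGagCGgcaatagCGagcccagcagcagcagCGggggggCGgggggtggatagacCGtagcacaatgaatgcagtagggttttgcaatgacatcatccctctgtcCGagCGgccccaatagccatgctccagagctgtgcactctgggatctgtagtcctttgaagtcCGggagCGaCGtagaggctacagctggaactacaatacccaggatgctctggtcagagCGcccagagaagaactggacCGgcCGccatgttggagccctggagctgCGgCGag
B330016D10Rik promoter: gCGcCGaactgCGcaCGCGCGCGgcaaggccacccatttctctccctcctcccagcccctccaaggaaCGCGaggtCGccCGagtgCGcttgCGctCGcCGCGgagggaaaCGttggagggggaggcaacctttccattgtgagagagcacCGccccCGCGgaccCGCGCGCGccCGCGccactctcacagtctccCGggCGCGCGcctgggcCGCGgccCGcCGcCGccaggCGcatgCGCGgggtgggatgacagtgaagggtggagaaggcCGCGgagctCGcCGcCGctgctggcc

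The 4632427E13Rik start on chromosome 7 carried an H3K4me3 peak of 442 normalized reads in the WT and 528 in the KO. The stretch downstream (chr7:99880871-99888893, 8.02 kb) had an H3K36me3 value of 458 in the WT and 465 in the KO. It had 57.1 normalized reads per kb in the WT, where the median stretch had 24.8. The start of B330016D10Rik on chromosome 4 carried H3K4me3 of 875 in the WT and 765 in the KO. Its stretch (chr4:141119479-141126338) was weaker, with 153 in the WT and 158 in the KO, or 22.4 per kb in the WT. Both log2 ratios of H3K36me3, 0.01 and 0.04, had counting intervals that spanned 0. These genes were picked after their values were seen.

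The 8 ChIP libraries held 2250264 to 14317664 reads in peaks. The H3K36me3 libraries were of like depth, with 11618230 (WT) and 13095590 (KO). For the other marks the KO library held 3.85 times (H3K4me3), 4.56 times (H3K27ac) and 5.87 times (H3K4me1) the reads of the WT library. Peaks of those marks were therefore used only with at least 10 normalized reads in both libraries. Each group had 1 library per mark, so no test between genotypes was possible and no p-value is given. The intervals cover counting error only. Defining markers were read as H3K4me3 within 1 kb of a gene's start. All 14 neutrophil markers (such as S100a8, Mmp9 and Csf3r) carried it, at 744 to 4707 normalized reads in the WT and 798 to 4722 in the KO. Of other cell types, 2 of 4 T cell, 2 of 5 B cell, 1 of 4 natural killer cell, 1 of 5 eosinophil, 3 of 5 monocyte and 3 of 3 erythroid markers had a peak. The highest of these was the erythroid factor Klf1, at 332 in the WT and 365 in the KO. Ms4a1, which defines B cells, and Prg2 and Epx, which define eosinophils, were without a peak. In the same lists, the B cell markers Pax5 (84.7 in the WT, 125 in the KO) and Cd79b (54.1 and 49.3) had a peak. So did the eosinophil marker Siglec5 (56.5 and 62.3). In the bulk chromatin measured here, fewer cells with a mark and less mark per cell cannot be told apart.

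The targeted gene had no H3K36me3 peak above the lowest value in the KO library. Over chr2:128095976-128253457 all 19 consecutive H3K36me3 peaks were at the lowest KO value of the table, 0.935, which is worth 1 read. The same 19 peaks summed to 4117 in the WT. Runs of peaks at the lowest KO value were found there in the other marks too, with 8 H3K4me3, 13 H3K27ac and 15 H3K4me1 peaks. Of the intergenic stretches, 1 lay in that run.

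The stretches were found on all autosomes and the X chromosome, from 378 on chromosome 1 to 52 on the X. They ranged in width from 1000 to 293780 bp, with a median of 1926 bp, and 231 were at least 10 kb wide. Their WT values ran from 15.02 to 22361 normalized reads, with a median of 46.1, and the KO values from 0.935 to 23439, with a median of 45.8. Per kb, the median WT value was 24.3 for the free-standing, 25.4 for the adjoining and 38.8 for the holding stretches. Genic H3K36me3 peaks of the same minimum width and value (n = 23332) had a median of 30.2. The KO values played no part in the choice, and 4883 of the stretches (98.7%) also reached 15 in the KO library. The same share over genic peaks is not given here, so nothing particular to the stretches is read from it.

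At the value threshold, a member nearest to Cxcr4 (chr1:130480083-130481389) and 1 nearest to Mir488 (chr1:160628839-160630272) were just inside with 15.02 normalized reads, which is 14 reads. Just outside, with 13.9, were peaks nearest to Il1r2 (chr1:40113086-40114134) and Dars (chr1:130375950-130377022). At the width threshold, 2 members nearest to Zfp386 and Raver1-fdx1l were 1000 bp wide, and peaks nearest to Pam and Ier5 were left out at 999 bp. In all, 315 intergenic peaks were wide enough but too low, and 2265 were high enough but too narrow.

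H3K4me3 lay close to most stretches. A peak within 5 kb, edge to edge, was found for 3399 of 4949 (68.7%), against 57% of the genic H3K36me3 peaks and 52.5% of the 5690 intergenic peaks that were not chosen. For H3K4me3 peaks that were themselves annotated as intergenic, the count was 2677 (54.1%), against 4.12% of genic peaks and 40.5% of the intergenic peaks not chosen. Direct overlap with H3K4me3 was less frequent, at 1158 (23.4%). The share with any H3K4me3 within 5 kb was 90.7% of the holding, 73.0% of the adjoining and 65.2% of the free-standing stretches. That with intergenic H3K4me3 had the opposite order, at 34.2%, 41.0% and 62.2%. Wider intervals meet more peaks of any kind, and the peaks share the libraries and the annotation, so these shares are descriptions.

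The other marks were also frequent. An H3K27ac peak overlapped 2773 stretches (56.0%), against 49.1% of genic peaks and 33% of the intergenic peaks not chosen. H3K4me1 overlapped 3735 (75.5%), against 63% and 51.2%. All 3 other marks overlapped 1017 stretches, and 306 had none of them within 5 kb, of which 146 were free-standing. Among free-standing stretches, H3K27ac overlapped 69.2% of the 1933 with intergenic H3K4me3 within 5 kb and 37.3% of the 1081 without any H3K4me3 there.

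The plot of H3K4me3 shares by width follows 4 width classes. The share of all stretches with any H3K4me3 within 5 kb was larger in the wider classes, from 63.97% at 1 to 2 kb through 70.6% and 80.1% to 86.6% at 10 kb and over. Genic peaks went from 39.7% to 77.3% over the same classes. For intergenic H3K4me3, the free-standing stretches went from 58.7% to 76.3%, while genic peaks stayed between 2.09% and 7.19%.

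**Figure D1:**
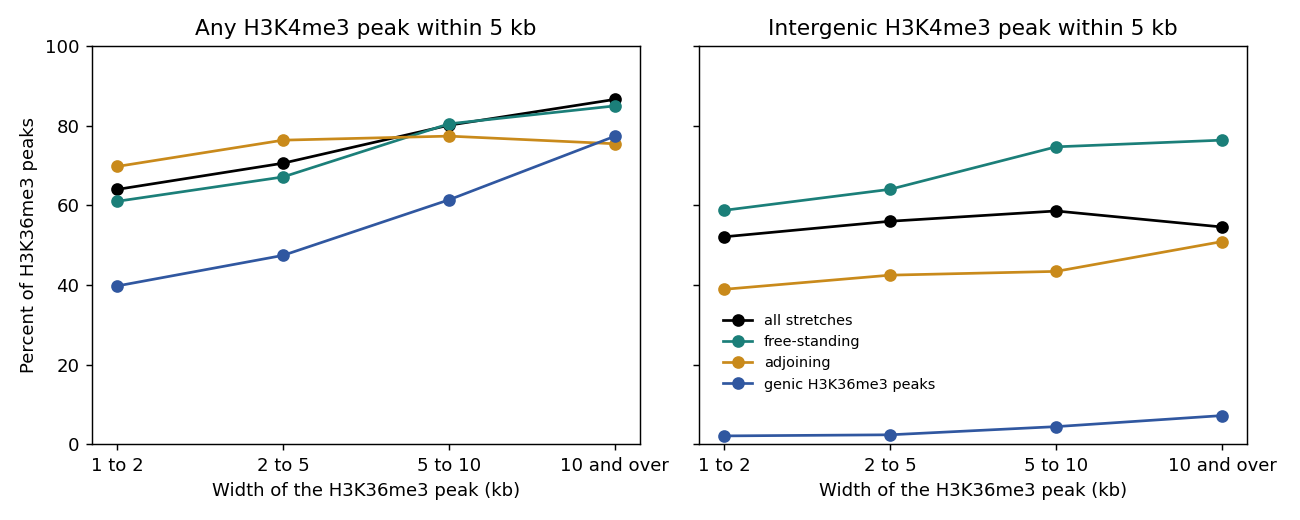
Percent of H3K36me3 peaks with an H3K4me3 peak within 5 kb, by peak width in kb, for any H3K4me3 peak (left) and for intergenic ones (right). Points are shares of all stretches, of the free-standing and adjoining ones, and of genic H3K36me3 peaks of the same minimum width and value; the free-standing stretches reach 76.3% for intergenic H3K4me3 where genic peaks reach 7.19%.

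The H3K4me3 near free-standing stretches was mostly weak. The 1499 intergenic H3K4me3 peaks nearest to them had a median of 29.3 normalized reads per kb in the WT and 33.3 in the KO. The 6174 other intergenic H3K4me3 peaks had 33.1 and 38.4, and the 4387 promoter-annotated peaks 126 and 135. A CpG island was annotated at 3.07% of the first set and 8.49% of the second. An intergenic H3K4me3 peak that reached the lower quartile of promoter peaks in both libraries (56.2 per kb in the WT, 62.9 in the KO) lay within 5 kb of 305 free-standing stretches (9.82%).

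Adjoining stretches were also split by the side of the gene on which they lay. The H3K4me3 peaks counted here include those at annotated starts, and a gene's start is at its 5′ end. The shares by side therefore differ in part by position alone. Intergenic H3K4me3 was not counted by side. Where strand could be rebuilt, 771 lay on the 3′ side of the gene of the adjoining genic peak and 759 on the 5′ side. An H3K4me3 peak lay within 5 kb of 454 on the 3′ side (58.9%) and of 675 on the 5′ side (88.9%). Their H3K36me3 densities were close, with medians of 25.6 and 25.3 normalized reads per kb in the WT.

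The widest and highest of all (chr10:4956178-5249957, 294 kb) is nearest to Syne1, which encodes the nuclear envelope protein nesprin-1. It had 22361 normalized reads in the WT and 23439 in the KO, and it held the centres of 32 genic peaks, so it is intergenic only by its own centre. The stretches nearest to Cracr2a (77.6 kb, 4804 and 4580), Gatad2b (69.5 kb, 2609 and 2654) and Clec7a (47.6 kb, 2492 and 2587) also held genic centres. Clec7a encodes the β-glucan receptor dectin-1.

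Of the 8 highest stretches, 4 were adjoining stretches, with no rebuilt start and no genic centre inside. A stretch of 94.5 kb between Mir1932 and Endov (chr11:119255756-119350248) had 6665 normalized reads in the WT and 6604 in the KO. At its left end was an intergenic H3K4me3 peak of 1250 and 1298, centred 1.598 kb outside the stretch. In GRCm38 the lncRNA gene A930037H05Rik is listed between these neighbours. A stretch of 130 kb near H2afy (chr13:56029811-56159530), the gene of the histone variant macroH2A1, had 5604 and 5234, with H3K4me3 of 233 and 296 at its left end. RefSeq lists 6 genes between its flanking genes Pitx1 and Tifab. They are the lncRNA genes Gm31485, Gm31542 and Gm31657, the protein-coding gene Macroh2a1 and the pseudogenes Gm47072 and Gm25148. The Svil stretch on chromosome 18 (104 kb, 5157 and 4980) carried H3K4me3 of 1485 and 1506 at its left end. The stretch near Snora30 on chromosome 7 (55.3 kb, 3747 and 3759) had an H3K4me3 peak of 494 and 447 just outside its left end. By its deposited distance the Snora30 start lies inside this stretch. The newer table lists Srcap, a chromatin remodelling ATPase gene, between its flanking genes. Whether a gene of the newer table overlaps a stretch is not known, because only gene order was taken from it.

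A stretch downstream of the Neat1 start ended 1.26 kb from that start, and its centre lay 14029 bp downstream by the deposited distance. Neat1 is the RNA that scaffolds nuclear paraspeckles and has a short and a long isoform, and Malat1 is a nuclear RNA gene beside it. The stretch (chr19:5818678-5844219, 25.5 kb) had 1362 normalized reads in the WT and 1236 in the KO, or 53.3 and 48.4 per kb. The log2 ratio was -0.15 (-0.26 to -0.03). An H3K4me3 peak of 1389 in the WT and 1440 in the KO was centred 0.354 kb outside its right end, on the side of the Neat1 start.

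Stretches within 10 kb of each other were joined into 2967 domains, of which 1998 held a single stretch and the fullest held 24. All members were free-standing in 1452 domains. Of these, 291 spanned at least 10 kb, and 244 of the 291 (83.8%) had an intergenic H3K4me3 peak within 5 kb, against 700 of the 1161 shorter ones (60.3%). With the promoter-strength threshold given above, the counts were 80 (27.5%) and 88 (7.58%). Long free-standing domains had a median of 25.7 normalized reads per kb in the WT and 24.7 in the KO. Both flanking genes of 288 were found in the newer RefSeq table, which lists at least 1 lncRNA gene between the flanking genes for 242 (84.0%) and no gene for 8. It does so for 845 of 1148 free-standing domains under 10 kb (73.6%) and for 3761 of the 5653 intergenic H3K36me3 peaks that were not chosen and could be placed (66.5%), so an lncRNA gene in the same interval is common for intergenic peaks in general.

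The strongest intergenic H3K4me3 peak did not sit at the end of most long free-standing domains. Its centre was outside the domain or in the outer 10% of its length for 89 of 244 (36.5%), and in the middle 40% for 77 (31.6%). Of the 7117 genic H3K36me3 peaks of 10 kb and over, 5504 had an H3K4me3 peak within 5 kb. In these 5504, the strongest H3K4me3 peak was outside or in the outer 10% for 92.6% and in the middle 40% for 2.65%. A domain joins several peaks and a genic peak is 1 interval, so the sets are not built alike.

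**Figure D2:**
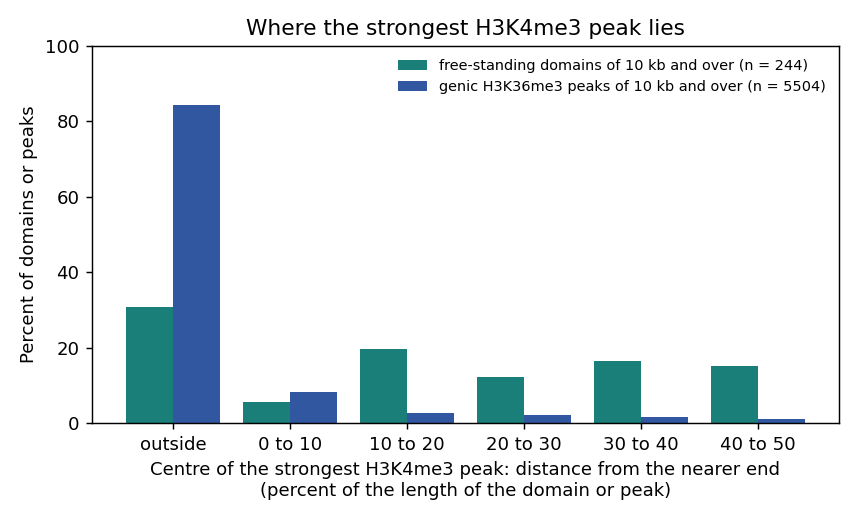
Position of the strongest H3K4me3 peak near long free-standing H3K36me3 domains (intergenic H3K4me3 only, n = 244) and genic H3K36me3 peaks of 10 kb and over (any H3K4me3, n = 5504), as distance of its centre from the nearer end in percent of the length. Only domains and peaks with such an H3K4me3 peak within 5 kb are counted. Bars are percents of domains or peaks; 84.4% of genic peaks and 30.7% of domains have it outside.

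The 15 long free-standing domains of highest WT signal spanned 23.2 to 157 kb and had 26.7 to 53.9 normalized reads per kb in the WT. Intergenic H3K4me3 lay within 5 kb of 14, H3K27ac overlapped 13 and H3K4me1 overlapped all 15. An lncRNA gene is listed between the flanking genes of 13 in the newer table. The share was 84.0% over all long free-standing domains that could be placed and 66.5% over the intergenic H3K36me3 peaks not chosen.

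The largest (chr12:25941279-26098243, 157 kb) is nearest to Gm17746 and held 24 stretches. Its H3K36me3 value was 3500 normalized reads in the WT and 2800 in the KO. Within 5 kb of its stretches lay 12 intergenic H3K4me3, 20 H3K27ac and 15 H3K4me1 peaks. The strongest H3K4me3 peak had 146 (WT) and 150 (KO), near the middle of the domain. The newer table lists 8 lncRNA genes between the flanking genes, among them Gm36287, Gm36496 and Gm36441.

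A domain of 88.7 kb on chromosome 4 (chr4:94750269-94838965) is nearest to Jun, which encodes a subunit of the AP-1 transcription factor, and lies upstream of its start. It had 2692 normalized reads in the WT and 2956 in the KO, and its strongest H3K4me3 peak had 228 and 220. The newer table lists the lncRNA genes Junos, Gm12708, Gm32240, Gm830, Gm12707 and Gm40206 between Jun and Fggy. The domain nearest to H19 (chr7:149774059-149814985), an imprinted non-coding RNA gene, had 1812 and 1914. The domain nearest to Inhba (chr13:16279187-16417319), which encodes the βA subunit of activin and inhibin, held 21 stretches with 1684 and 1483 in all. Its strongest H3K4me3 peak was low, at 35.3 in the WT and 68.1 in the KO.

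Other domains had H3K4me3 at 1 end. The domain nearest to Atxn7l3b (chr10:112275623-112298806) was a single stretch of 23.2 kb with 1236 normalized reads in the WT and 1277 in the KO. An intergenic H3K4me3 peak of 562 and 683 was centred 0.311 kb inside its left end, and the lncRNA gene Gm3942 is the only gene listed between the flanking genes. The domain nearest to Gm4759 (chr7:113644671-113670471) had 1362 and 1413, with H3K4me3 of 362 and 436 beside its right end. At 53.9 normalized reads per kb in the WT it was the densest of the 291. The stretch of 25.5 kb at Spc25 (chr2:69016976-69042442), a kinetochore gene, had 1318 and 1296. By the deposited distance its centre lay 14538 bp downstream of the Spc25 start. Whether the stretch runs over the body of Spc25 was not tested. It was the only one of the 15 without intergenic H3K4me3, and the peak 551 bp from its right end, 254 in the WT and 284 in the KO, lay over the annotated start of Spc25.

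Ly6g encodes the surface antigen that marks mouse neutrophils, and the newer table lists it between Ly6c2 and Ly6f. A domain between these 2 genes (chr15:74952779-74992318, 39.5 kb) had 1052 normalized reads in the WT and 1023 in the KO. Its 5 intergenic H3K4me3 peaks summed to 2104 and 2584, the highest H3K4me3 sum of the 15. The leftmost of these peaks ran from -14.975 to -2.517 kb, counted from the left end of the domain. It covered the annotated Ly6c2 start at -10.401 kb and was intergenic only by its centre, so the sum includes signal at an annotated start. The stretch nearest to Fcnb (chr2:27948647-27998994, 50.3 kb) had 2348 and 2131. Fcnb encodes ficolin B, a lectin of innate immunity made by myeloid cells. An intergenic H3K4me3 peak of 631 and 738 was centred 2.01 kb inside its left end, and the newer table lists the lncRNA gene F730016J06Rik between Fcnb and Olfm1. The domain it belongs to also holds a stretch that is not free-standing, so it is not one of the 291.

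The domain between Sgms2 and Papss1 (chr3:131126461-131166709) had 1379 normalized reads of H3K36me3 in the WT and 1305 in the KO. Its strongest H3K4me3 peak, 894 and 966, lay over an annotated CpG island. The summed H3K27ac there was 3513 and 2796, a log2 ratio of -0.41 (-0.50 to -0.32) after subtraction of the median log2 ratio of H3K27ac peaks past the minimum, 0.085.

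3 neighbouring stretches lay between Tiam1, which encodes a Rac exchange factor, and Gm10789 on chromosome 16. They were 43.8, 29.0 and 44.7 kb wide and had 1541, 1067 and 1910 normalized reads in the WT and 1492, 1121 and 1743 in the KO. The lncRNA gene Gm52239 is listed between these neighbours. The map of 4 marks shows the Gm17746, Jun and Ly6c2 domains and the Fcnb stretch.

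**Figure D3:**
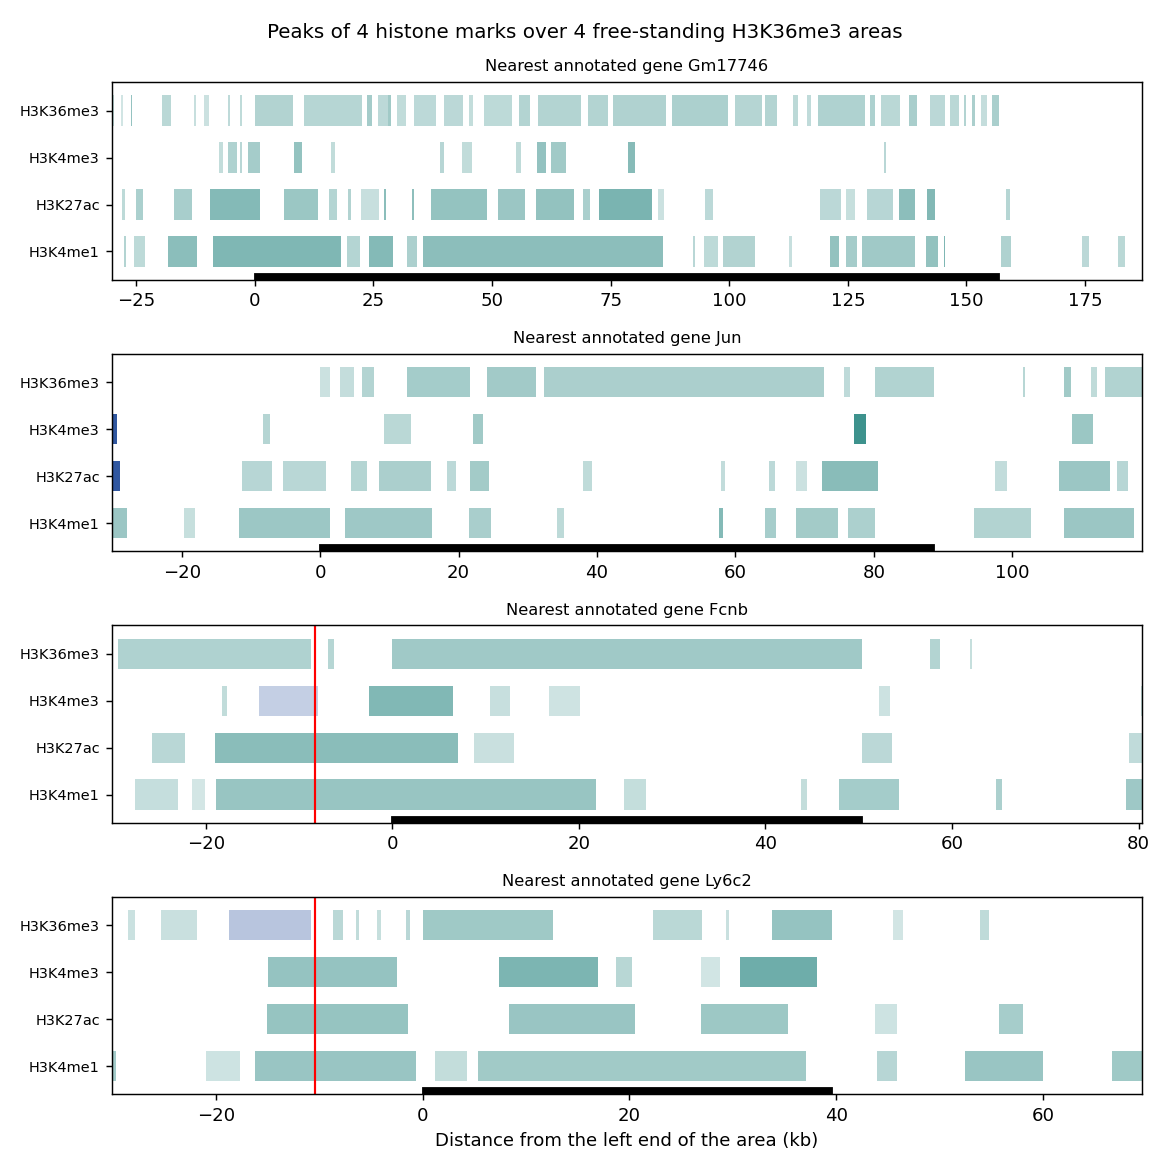
Peaks of H3K36me3, H3K4me3, H3K27ac and H3K4me1 over the domains nearest to Gm17746, Jun and Ly6c2 and the stretch nearest to Fcnb, in kb from the left end of each (black bar: its extent). Boxes are peaks, green for intergenic and blue for genic annotation and darker with more wild-type reads per kb, and red lines are annotated starts; H3K4me3 lies inside all 4, and near the left end at Fcnb.

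Ranked by density, the 12 highest domains that had intergenic H3K4me3 and lay over 10 kb from genic H3K36me3 mixed such long domains with repeats. At 6 of the 12, the centre of the strongest H3K4me3 peak was annotated to a repeat. The densest of all (chr2:98502312-98507559), nearest to Lrrc4c, had 138 normalized reads per kb in the WT and 129 in the KO. There H3K4me3 was 1570 in the WT and 489 in the KO, and H3K27ac 1495 and 387, while H3K36me3 was 724 and 679. H3K4me1 went from 2042 to 426. No repeat was annotated at the centre. The lower KO values came with the scaling of unlike libraries, where 1 read of H3K4me3 counted 2.35 (WT) and 0.649 (KO). For H3K27ac it counted 2.75 and 0.616, and for H3K4me1 3.40 and 0.592. As recovered reads, every mark was higher in the KO, so no loss of a mark is read here. Whether this signal is specific to any mark was not tested. The next in density was over an IAP element (chr17:80964146-80970779), nearest to Cdkl4, with H3K36me3 of 515 and 524. The third was over satellite sequence (chr11:3000248-3004813), nearest to Pisd-ps1, with 352 and 366. Reads from other copies of a repeat may be counted in such peaks, so these values are uncertain.

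Repeats were also common at the centres of other stretches. An ERVK element was annotated at the centre of 6.81%, against 1.71% of genic H3K36me3 peaks, a MaLR element at 7.66% against 3.49%, and an L1 element at 9.54% against 6.28%. The intergenic peaks not chosen had 7.36%, 7.77% and 12.4%. A satellite was annotated at the centre of 7 stretches.

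Dense groups of stretches stood at a few loci. The 1-Mb window with the most, 43, was on chromosome 12 and is described with the Ighv segments below. A window near Irf2bp2 on chromosome 8 held 37 stretches with 2204 normalized reads in the WT and 2131 in the KO. A window around Inhba held 36, with 3110 and 2903. Windows at Bcl6, which encodes a transcriptional repressor, and at Cxcr4, the receptor that retains neutrophils in bone marrow, held 27 and 21. Their sums were 1413 and 1434, and 1143 and 1127.

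70 free-standing stretches on chromosome 12 lay in intervals where the newer table lists Ighv segments, the variable segments of the immunoglobulin heavy chain. 43 of them lay between Mir7094-2 and Mir6388, with 3029 normalized reads in the WT and 2619 in the KO (log2 ratio -0.22, -0.29 to -0.14). The other 27 lay between Mir6388 and Zfp386, with 2028 and 1722 (log2 ratio -0.24, -0.34 to -0.15). These ratios are of sums. By domain, 9 of 15 in the first interval and 6 of 7 in the second were lower in the KO. Beside these values, the summed H3K4me3 of the 5 B cell markers was 139 in the WT and 175 in the KO, with Cd79a and Ms4a1 among those at 0. Its part in the result was not tested.

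KO and WT values of the stretches lay close together. At least a 2-fold higher KO value was found for 21 of 4949, where 4.37% of all H3K36me3 peaks were so, and at least a 2-fold lower value for 73, where 4.33% of all peaks were so. Folds are log2 of KO + 1 over WT + 1, minus the median over all H3K36me3 peaks, which was 0.007. The rule used the WT value of this same contrast, so nothing is read from these counts. Genic peaks under the same minimum had 0.253% and 0.887%. The median log2 ratio of the stretches was -0.01, as it was for the free-standing and adjoining ones, and -0.02 for the holding ones. Of the 2476 stretches with a mean of both libraries at or above the median, 1 was at least 2-fold higher and 8 at least 2-fold lower.

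**Figure D4:**
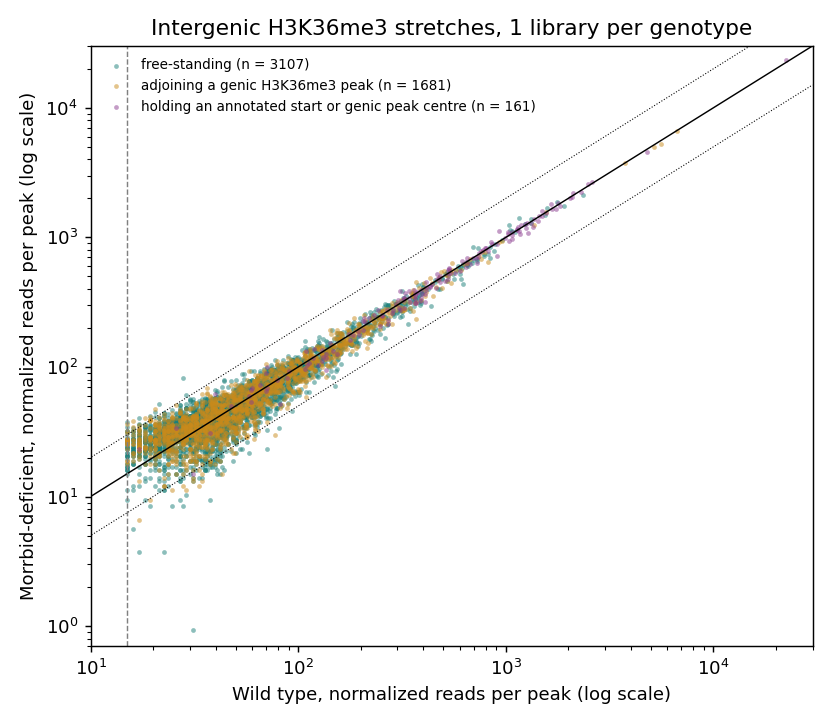
H3K36me3 of each of the 4949 intergenic stretches, wild type against Morrbid-deficient, in normalized reads per peak on log axes; points are stretches coloured by class, the solid line marks equal values, the dotted lines a 2-fold difference and the dashed line the threshold of 15. The 1 point at 0.935 in the Morrbid-deficient library lies in the targeted interval.

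The lowest ratio was that of the stretch in the targeted interval (chr2:128095976-128097014). It had 31.1 normalized reads in the WT and 0.935 in the KO, a log2 ratio of -4.06 (-10.42 to -2.47). On the Bcl2l11 side of this interval lay 8 stretches of 16.1 to 29.0 normalized reads in the WT and 22.4 to 42.1 in the KO. All 8 were higher in the KO, and their sum was 170 in the WT and 254 in the KO, a log2 ratio of 0.58 (0.29 to 0.87). The interval of the single stretch lay above 0 for 2 of the 8. All 8 had WT values under 30. The median log2 ratio was -0.07 over stretches of at least 30 in the WT and -0.01 over all stretches. It was 0.22 over the intergenic peaks not chosen, whose median WT value was 12.3. How many stretches of like WT value were higher in the KO was not counted. On the other side, nearest to Gm14005, 12 stretches summed to 608 and 641, a log2 ratio of 0.07 (-0.09 to 0.23), and 7 of the 12 were higher in the KO. These stretches were named for their position beside the targeted gene.

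Among those 2476 stretches, the highest ratio was 1.52 (0.91 to 2.24), at a stretch nearest to Zfp791 with 27.9 normalized reads in the WT and 82.3 in the KO. The next were at S100a9 (36.5 and 68.3), which encodes a calprotectin subunit, Cacna1e (44.0 and 79.5), Gm14005 (34.3 and 61.7) and Rreb1 (44.0 and 78.6). All 4 had log2 ratios of 0.82 to 0.88. Gm14005 is the Morrbid gene, and its stretch here (chr2:128256184-128257870) is 1 of the 12 described above beside the targeted interval. The lowest was -1.57 (-2.33 to -0.92), at a stretch of 70.8 in the WT and 23.4 in the KO inside the Gm17746 domain. Others among the lowest were F13a1 (80.5 and 33.7), Depdc1b (70.8 and 32.7) and Zfp831 (150 and 71.1), with -1.24, -1.10 and -1.08. The counting intervals of the stretches named here excluded 0, and these are among the extremes of the 2476.

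Over whole domains the ratios were narrower. Among 163 free-standing domains with at least 200 WT reads, the log2 ratio ran from -0.50 to 0.26, with a median of -0.08, so none differed 1.5-fold. The counting interval lay below 0 for 35 (21.5%) and above 0 for 3 (1.84%). Of 9344 single genic H3K36me3 peaks with at least 200 WT reads, it lay below 0 for 15.8% and above 0 for 3.35%. A minimum set on the WT library alone favours values that are lower in the KO, in both sets. The lowest was a domain of 63.5 kb between Nudt4 and Eea1 (chr10:95203738-95267206), with 749 normalized reads in the WT and 532 in the KO (-0.66 to -0.34). Its 5 H3K4me3 peaks summed to 892 in the WT and 666 in the KO. A domain in the Ighv interval (chr12:116857693-116889068) had 717 and 530 (log2 ratio -0.44, -0.61 to -0.28), with H3K4me3 of 567 and 373. The Gm17746 domain had -0.33 (-0.40 to -0.26), and its summed H3K4me3 was 753 and 759. The highest was a domain near Amn1 and 2810474O19Rik (chr6:149162499-149213492), with 581 and 700 (log2 ratio 0.26, 0.10 to 0.42). Its H3K4me3 was 75.3 and 142.

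**Figure D5:**
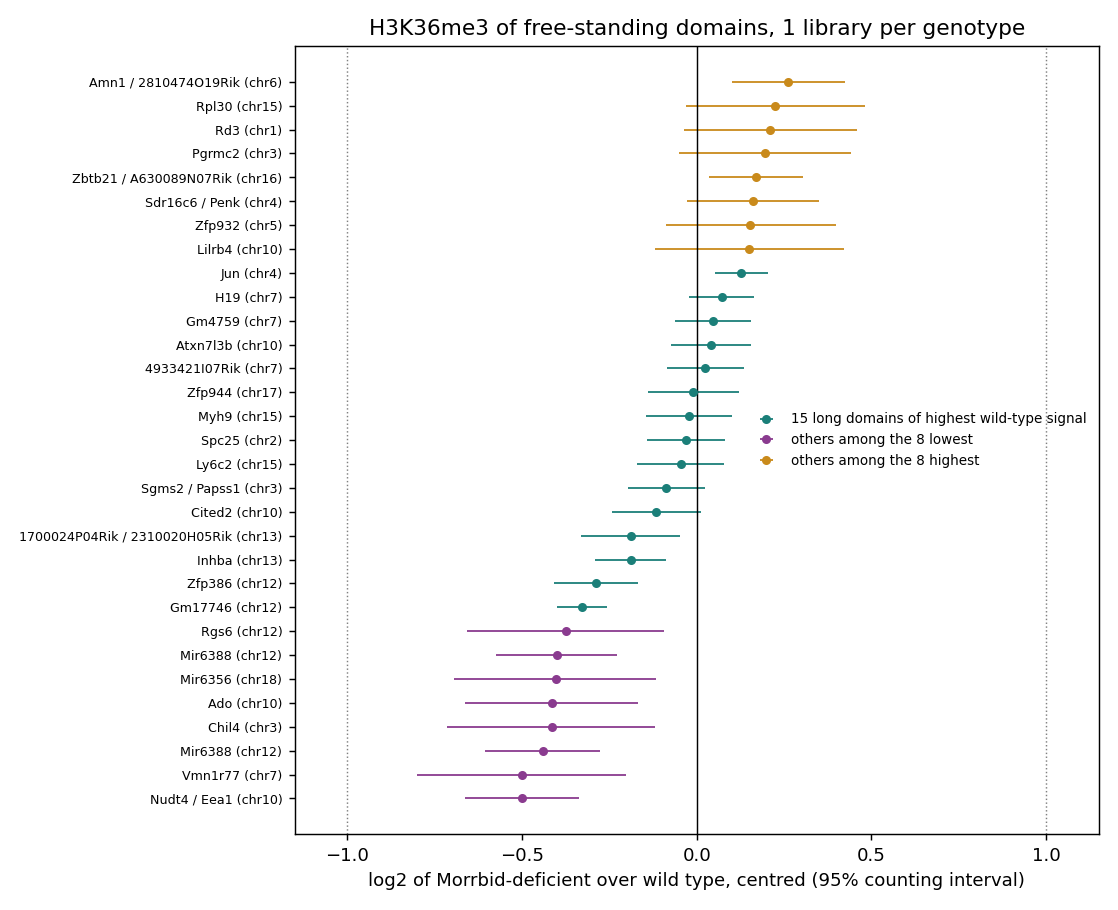
log2 ratio of H3K36me3 between Morrbid-deficient and wild-type neutrophils for free-standing domains named by nearest gene, with 95% counting intervals as bars; dotted lines mark a 2-fold difference. The 15 long domains of highest wild-type signal lie between -0.33 and 0.13, and the extremes of the 163 domains with at least 200 wild-type reads lie between -0.50 and 0.26.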

How the data were processed

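Neutrophil ChIP-seq tables of 4 marks were used, 1 library per mark and genotype. The submitters' processing notes name mm9, HOMER, DiffBind, MACS2 2.1.0 and Bowtie2 2.2.3, besides R 3.1.1, Trimmomatic 0.32 and bcl2fastq 2.16.0. Their settings, and whether input was subtracted, are not given in the sources used here, and 2 samples titled input DNA were not used here. The authors deposited a normalized read signal per consensus peak and library, and a log2 fold of KO over WT, which equals the log2 ratio of those signals. Divided by the lowest signal of its library, every signal was whole to 0.01 (100% of peaks), which recovers the reads. No peak is at 0, so 1 read and none cannot be told apart. With 1 library per group, a count model (edgeR, DESeq2) has no residual degrees of freedom, so none was fitted.

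Coordinates are mm9 as deposited. Annotated starts and strands were rebuilt from peak centres and the deposited distances for 21562 of 24606 promoters (87.6%). The 95% intervals are exact (Clopper-Pearson) on recovered reads, which covers counting error only. The self-test on simulated data recovered the distances, starts and ratios put in. Domains named are those of highest WT signal, width, density or ratio, and those beside Gm14005 and Bcl2l11. Some named by these rules are not reported here. The members and lists were chosen with earlier results of these data known, and the class of holding stretches was added after seeing the data. Computation used scipy 1.17.1, pandas 2.3.3, numpy 2.4.6 and Python 3.11.15, with plots by matplotlib 3.10.9.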

Additional observations from a re-analysis of the deposited data

How the results depend on the processing

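Of 110 values recomputed under other settings, 89 stayed within 1.5 times the reported count or, for the median log2 ratio, within 0.63, the usual half-width of a stretch's counting interval. The median ran from -0.07 to 0.01. A minimum width of 2000 bp left 2351 stretches in 1697 domains, 1737 with H3K4me3 and 1324 with intergenic H3K4me3 within 5 kb, 1439 over 10 kb from genic H3K36me3 (940 of them with intergenic H3K4me3), 1516 with H3K27ac, 1919 with H3K4me1, and 4 higher and 10 lower 2-fold in the KO. Direct overlap in place of 5 kb gave 1158, 891 and, over 10 kb from genic H3K36me3, 630 stretches with H3K4me3. Cover of at least 50% of the smaller interval gave 1633 with H3K27ac. The count of stretches 2-fold higher in the KO, reported as 21, was 0 with a WT minimum of 30, 61 with a KO minimum of 15, 54 with a minimum on the mean, 7 with a pseudocount of 5 and 13 when centred on the running median. The count lower, reported as 73, was 46 with a KO minimum of 15 and 36 with a pseudocount of 5. These counts moved with the library that set the minimum. Settings added after seeing the data, without stretches holding annotated starts, without satellites, or with the minimum for other marks in the KO library only, moved no count beyond 1.5 times. No paired analysis was possible because each genotype has 1 library per mark. Without replicate libraries, differences between animals cannot be told apart from differences between genotypes.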
